A study of Mus musculus with 3 samples.

Results

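The cells described here are 780 B lymphocytes with a B-1-like transcript profile, found among 3525 cells kept from a cauda epididymis aspirate of a Tsc22d3-knockout mouse. They were chosen by transcript counts alone. A barcode had to hold at least 500 UMIs (unique molecular identifiers, 1 per captured RNA molecule) and 200 genes, with at most 20% of UMIs from mitochondrially encoded genes. Cd79a, Cd79b and Ms4a1, which encode the signalling chains of the B cell receptor and CD20, had to make up at least 0.1% of its UMIs. The 4 macrophage genes Adgre1, Csf1r, Timd4 and Vsig4 could hold at most 1 UMI in sum. These gates left 1936 B cells. A B-1-like cell then had no UMI of Fcer2a, Cr2 or Ighd, which mark conventional B cells, and at least 2 UMIs in sum of Zcwpw1, Bhlhe41, Cplx2, Lifr and Ahnak2. The 780 cells were 22.1% of all kept cells (exact binomial 95% interval 20.8 to 23.5) and 40.3% of the gated B cells (38.1 to 42.5).

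B-1 cells are a long-lived, self-renewing lineage of B lymphocytes that arises largely before and around birth and resides in the peritoneal and pleural cavities. They make natural IgM without prior immunization, often with germline-like variable segments that recognise self lipids and bacterial coats. Conventional B-2 cells, by contrast, recirculate through spleen and lymph nodes, carry CD23, CD21 and IgD, and answer protein antigens with T cell help. The peritoneal cavity is continuous with the space around the epididymis in male mice.

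Single-cell RNA was captured with 3′ chemistry in 3 mouse libraries, with 1 library for each group and no replicate animals. The KO cauda animal was a goGermline mouse with Tsc22d3 knocked out, a line in which males lack their own germ cells, and its cells were taken by percutaneous epididymal sperm aspiration. The chimera cauda library was aspirated in the same way from a Tsc22d3-KO chimera that carried cells of mouse induced pluripotent stem cells, under the line label Pax7-nGFP iPS x goGermline, so its blood cells can descend from the host or from the donor cells. The KO testis library came from dissociated testis of an adult goGermline knockout. Ages other than adult are not given in the labels, and the knockout is shared by all 3 hosts. Neither cauda label names lymphocytes: the cells are labelled epididymal cells in the KO and spermatids and spermatozoa in the chimera.

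The cauda libraries share barcodes, and this bears on every value from the chimera. All 3937 KO cauda barcodes also occur among the 301167 barcodes of the chimera matrix, there with a median of 86 UMIs. Of 184 chimera cells kept by the same limits, 121 carry a KO cauda barcode. In 118 of these 121 the chimera holds more UMIs than the KO cauda, with medians of 21280 and 3707 UMIs. The B-1-like rule found 10 cells in the chimera, and all 10 carry a KO cauda barcode, 5 of them a B-1-like one. All 10 hold more UMIs in the chimera, with medians of 20010 there and 3721 in the KO cauda. Without shared barcodes the chimera has no B-1-like cell. Of the 780 B-1-like cells of the KO cauda, 13 are also kept cells of the chimera and 2 are kept cells of the KO testis. All 13 hold more UMIs in the chimera than in the KO cauda. Leaving out barcodes shared with either library left 765 cells, 22.5% of those kept. The KO testis held 1 B-1-like cell among 8 gated B cells and 13662 cells kept, and is not compared further.

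The 5 selecting genes are a description of the choice and not a result. Bhlhe41, a basic helix-loop-helix repressor that B-1a cells depend on, was found in 622 of the 780 cells, with 1479 UMIs. Cplx2, a complexin of vesicle release, was found in 452 cells and Lifr, the receptor chain for leukaemia inhibitory factor, in 413. Zcwpw1, a histone reader otherwise known from meiosis, had the most UMIs, 1749, but in only 307 cells. Ahnak2 was found in 244. Only 32 cells held all 5 genes, 288 held 3, and 104 held a single one, in 64 cases Bhlhe41 alone. Levels of S100a6 and Ly6d, which the rule did not use, were graded across its limit. The 100 cells with exactly 2 selecting UMIs held S100a6 at 3165 CPM (counts per 1e6 UMIs of the class) and Ly6d at 119.1 CPM. The 112 cells with 1 selecting UMI, left out by the rule, held 2815 and 191 CPM, and the 130 with none held 2425 and 245 CPM. The last of these are also shallower, with a median of 4844 UMIs against 8523 in cells with 2 selecting UMIs.

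The label was set beside genes that the rule did not use. Ebf1, the factor that sets the B lineage, was detected in 774 of 780 cells at 1662 CPM, against 4.27 CPM in 1024 macrophages of the same library and 5.57 CPM in 123 T cells. Cd22, an inhibitory receptor of B cells, was found in 546 cells at 136.5 CPM, against 1.09 CPM in the macrophages and none in the T cells. A defining gene of B-1 cells was nearly missing. Cd5, the surface protein that divides B-1a from B-1b cells, had only 42 UMIs in 35 of the 780 cells, or 5.15 CPM, against 78.0 CPM in the T cells. At this depth the absence of a Cd5 UMI does not show the absence of the protein, so the B-1a and B-1b divisions are not assigned. Spn, which encodes CD43, another surface marker of B-1 cells, had 170 UMIs in 112 cells and 20.9 CPM, against 18.0 CPM in B-2-like cells, a ratio of 1.16 (0.742 to 1.90).

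The variable segments used by the receptor are shown first because they are read from the rearranged gene itself and were not part of the rule. They did go with Zcwpw1, a gene of the rule, as described below, so they are not independent of the choice of cells. Peritoneal B-1 cells are known for receptors against phosphatidylcholine, built mainly from the heavy chain segment Ighv11-2 with the kappa segment Igkv14-126. The last 300 of the 353 coding bases of each germline segment follow, 5′ to 3′, from the GENCODE M21 transcripts of GRCm38. They hold the end of the leader and the mature segment. Capitals mark bases that differ from, or do not align to, the most similar other segment of the same chain.
Ighv11-2: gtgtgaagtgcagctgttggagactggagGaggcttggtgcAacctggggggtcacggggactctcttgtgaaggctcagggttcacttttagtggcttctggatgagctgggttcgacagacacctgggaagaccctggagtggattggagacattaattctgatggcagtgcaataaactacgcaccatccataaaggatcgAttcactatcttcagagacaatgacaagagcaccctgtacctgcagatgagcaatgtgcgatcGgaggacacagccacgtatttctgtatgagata
Igkv14-126: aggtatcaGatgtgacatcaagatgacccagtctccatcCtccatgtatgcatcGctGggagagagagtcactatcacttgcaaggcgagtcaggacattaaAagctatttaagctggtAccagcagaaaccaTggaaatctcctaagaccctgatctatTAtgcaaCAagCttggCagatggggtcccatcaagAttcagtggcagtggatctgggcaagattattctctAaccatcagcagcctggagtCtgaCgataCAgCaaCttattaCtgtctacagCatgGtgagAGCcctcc
Ighv11-2 lies on the minus strand of chromosome 12, 114048241 to 114048812, in the heavy chain locus. Its 353 coding bases differ at 4 from Ighv11-1, so reads of this near copy could be counted for either gene. Ighv11-1 itself held 7 UMIs in the B-1-like cells. Igkv14-126 lies on the plus strand of chromosome 6, 67896172 to 67896642, in the kappa locus, and differs at 30 of its 353 bases from Igkv14-111, which held 8 UMIs.

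Segments of the phosphatidylcholine type were found in a minority of the B-1-like cells and tended to sit in the same cells. Igkv14-126 had a UMI in 57 cells and Ighv11-2 in 33, and 17 cells held both. Among the 57 cells with Igkv14-126, 29.8% (18.4 to 43.4) also held Ighv11-2. Among the 723 cells without it, 2.21% (1.27 to 3.57) did. One or the other was found in 9.36% of the B-1-like cells (7.41 to 11.6) and in 2 of 224 B-2-like cells, or 0.893% (0.108 to 3.19). The 509 gated B cells with UMIs of both marker kinds were at 3.14% (1.81 to 5.05). The 423 in none of these classes were at 1.65% (0.668 to 3.38). B-1-like cells without a Zcwpw1 UMI were at 2.54% (1.32 to 4.39), and B-2-like cells could hold no Zcwpw1 UMI. No UMI of either segment was found in 1024 macrophages, which at a floor of 3 counts allows a share of cells with a UMI of up to 0.293%. A second pair with the same specificity, Ighv12-3 and Igkv4-91, was found in 7 and 11 B-1-like cells, with both in 3, and in none of the B-2-like cells. Variable segments were sampled thinly by capture from the 3′ end: 585 of the 780 B-1-like cells had a UMI of any variable segment, but only 166 had at least 2 UMIs of one segment. Depth also differs between the classes, with medians of 9880 UMIs in B-1-like and 5092 in B-2-like cells, and 55.8% of the B-2-like cells had any variable segment. The shares can thus miss use, while reads of the near copy Ighv11-1 could add to them. Without barcodes shared with another library the counts were again 57, 33 and 17 cells.

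Light chains differed in make-up. Mouse B cells mostly carry a kappa light chain, and a minority carries lambda. Nearly all B-1-like cells, 779, had at least 5 light chain UMIs, with a median of 151.5. At the limit set for the call, 90% of one kind, 18.7% (16.1 to 21.7) were lambda, 7.06% kappa and 74.2% mixed. Most mixed cells were mainly kappa with a lambda part that varied from cell to cell: in the 575 cells under 50% lambda, the median lambda share was 21.3%. The macrophages, with a median of 1 light chain UMI, carry far less of either. What the lambda part in kappa cells comes from was not tested. At 75% of one kind, a limit chosen after the values were seen, 173 of 779 B-1-like cells were lambda, 22.2% (19.3 to 25.3), against 14 of 224 B-2-like cells, 6.25% (3.46 to 10.3). The 509 B cells with both kinds of marker were at 17.5% (14.3 to 21.1). Of the B cells with too few marker UMIs for either class, the 381 with at least 5 light chain UMIs were at 21.0% (17.0 to 25.4), close to the B-1-like cells. The lambda cells held Iglc1 at 6540 CPM and Iglc2 at 6586 CPM, with Igkc at 440 CPM. Iglc2 and Iglc3 are near copies of each other, so their split is uncertain, while their sum with Iglc1 is not affected.

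**Figure D1:**
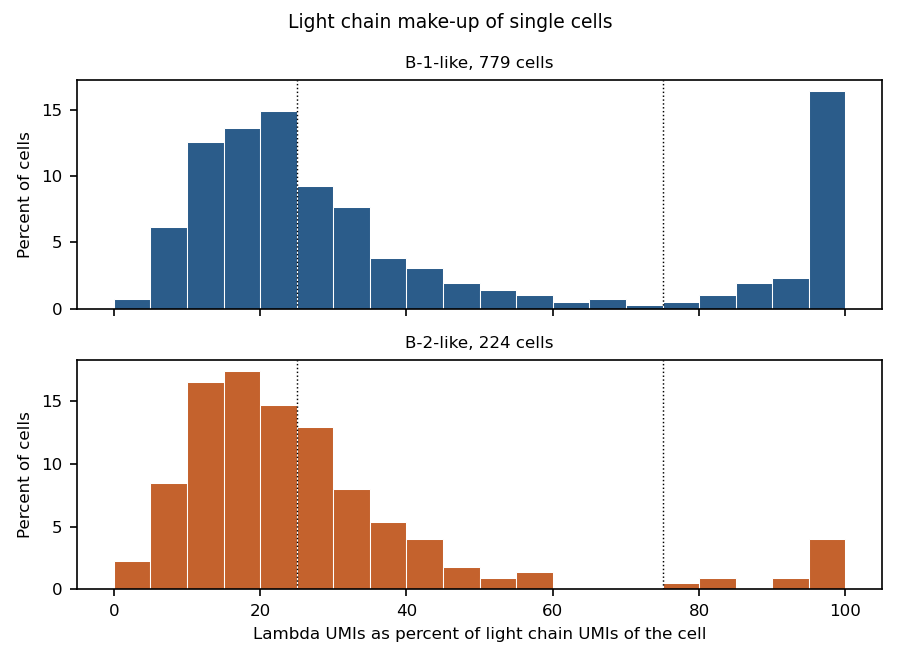
Share of lambda UMIs among the light chain UMIs of each cell (x axis, percent, in bins of 5) against the percent of cells (y axis), for 779 B-1-like and 224 B-2-like cells with at least 5 light chain UMIs; dotted lines mark 25% and 75%. Both classes have a peak between 10 and 25% lambda. The tallest bin of the B-1-like cells is at 95 to 100%, with 16.43% of them against 4.018% of the B-2-like cells.

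B-1-like and B-2-like cells of the KO cauda were compared to find what else sets the class apart. The 224 B-2-like cells passed the same gates, with at least 2 UMIs of Fcer2a, Cr2 and Ighd and none of the 5 selecting genes. Levels are sums over cells with exact Poisson 95% intervals, and ratios have exact conditional binomial 95% intervals. All cover counting error only, within 1 library, and since the classes were drawn on counts of the same cells the ratios are descriptions and not tests. The 3′ method yields 1 tag per molecule, so levels need no scaling by gene length. A size rule stands in for a test: at least 2-fold, with at least 100 CPM in the higher class. Of 1204 genes at that level outside the rule, 39 were higher (3.24%) and 48 lower (3.99%) in the B-1-like cells.

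After Jchain, described below, S100a4, Zeb2, Lgals1 and S100a6 had the largest ratios on the higher side. S100a6, a small calcium-binding protein, stood at 4045 CPM (4001 to 4089) in B-1-like cells and 635.0 CPM (591 to 681) in B-2-like cells, 6.37-fold higher (5.93 to 6.85). Its neighbour on chromosome 3, S100a4, was 8.36-fold higher (7.02 to 10.03), at 881 against 105 CPM. Lgals1, which encodes galectin-1, was 6.59-fold higher (4.83 to 9.21), and Itgb1, the integrin chain that binds matrix, 4.72-fold (3.74 to 6.04). The S100a6 signal was broad: 98.1% of B-1-like cells had a UMI against 51.8% of B-2-like cells, and 95.2% against 37.6% after each cell was thinned to 2000 UMIs. With B-2-like cells taken from 1 UMI of their markers in place of 2, S100a6 was 3.47-fold, S100a4 3.59-fold and Zeb2 4.08-fold higher, and 25 genes passed the size rule on the higher side.

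Others of the 12 genes with the largest ratios were between 3.30-fold and 6.99-fold higher. Zbtb32, a repressor that restrains memory B cell recall and is a known B-1 gene, was 4.17-fold higher (3.04 to 5.87), at 136.3 against 32.7 CPM, and 6.90-fold after thinning. Macrophages held it at 1.26 CPM and T cells at 6.69 CPM. Zeb2, a zinc-finger repressor, was 6.99-fold higher (5.12 to 9.82). Ptpn22, a phosphatase that damps antigen receptor signalling, was 3.30-fold higher (2.65 to 4.15). Rassf4 was 3.62-fold (2.89 to 4.60) and Ass1, the argininosuccinate synthase, 3.59-fold (2.76 to 4.74) higher. Tyrobp, the adaptor DAP12 of myeloid and NK receptors, was 3.46-fold higher (2.74 to 4.43), at 209 against 60.5 CPM.

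Several of these genes are abundant in the macrophages that share the aspirate. Macrophages held Tyrobp at 3209 CPM, Zeb2 at 895.5 CPM and Itgb1 at 698.9 CPM. The macrophage marker list summed to 862.7 CPM in B-1-like, 996.2 CPM in B-2-like and 78987 CPM in macrophages. Its most abundant member, Lyz2, stood at 244.4 CPM in B-1-like cells and 308.1 CPM in B-2-like cells. Per cell the order was the other way, with 2.56 Lyz2 UMIs per B-1-like cell, 1.68 per B-2-like cell and 712 per macrophage. The part of macrophage RNA in the levels of Tyrobp, Zeb2 and Itgb1 was not tested. Of the 10 measured members of that list, only Cd68 was at least 2-fold higher, at 11.3 against 3.27 CPM (ratio 3.45, 1.30 to 12.9), and none was 2-fold lower.

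Jchain had the largest ratio, but from few cells. It encodes the joining chain of secreted IgM and IgA. The B-1-like cells held 1978 UMIs and the B-2-like cells 3, a ratio of 98.9 (33.8 to 480.2). The UMIs came from 115 cells, and 2 cells held 1234 of them, or 62.4%. The first of these had 20365 UMIs, with 684 of Jchain, 9552 of Igkc and 3792 of Ighm, and its leading variable segment was Igkv12-44 with 122 UMIs. The second had 21469 UMIs, with 550 of Jchain and 9015 of Igkc, and its leading segment was Igkv14-126 with 21. Neither held an Igha UMI, and Sdc1, the plasma cell marker CD138, had 4 and 2 UMIs in them. Without these cells the Jchain ratio was 37.4, and with B-2-like cells taken from 1 UMI of their markers it was 13.1. The 423 gated B cells with too few marker UMIs for either class held Jchain at 245.0 CPM, as high as the 242.6 CPM of the B-1-like cells.

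On the lower side, Neurl3, a ubiquitin ligase, had the largest ratio, 48.1-fold lower (32.1 to 74.9), with 27 UMIs against 195. Counting the cells with both marker kinds as members made it 21.5-fold lower. Vpreb3, of immature and naive B cells, stood at 5.89 CPM (4.34 to 7.81) in B-1-like and 140.6 CPM (120.3 to 163) in B-2-like cells, 23.9-fold lower (17.3 to 33.6). Ccr7, the chemokine receptor for entry into lymph nodes, was 11.2-fold lower (8.51 to 14.9), at 10.2 against 114 CPM. Satb1, a chromatin organiser, was 9.05-fold lower (6.89 to 11.9), and Bach2, a repressor that holds B cells short of plasma cell fate, 5.48-fold lower (4.39 to 6.82). Zfp318, which is needed for IgD expression, was 8.59-fold lower (6.78 to 10.9). This gene is tied to Ighd, which the rule used. With the cells of both marker kinds counted as members, Ccr7 was 7.46-fold, Satb1 6.01-fold and Ms4a4c 5.31-fold lower. The other 6 were Ms4a4c, Ly6d, Chchd10, Pglyrp1, Hvcn1 and Serpinb1a, between 4.18-fold and 7.996-fold lower.

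**Figure D2:**
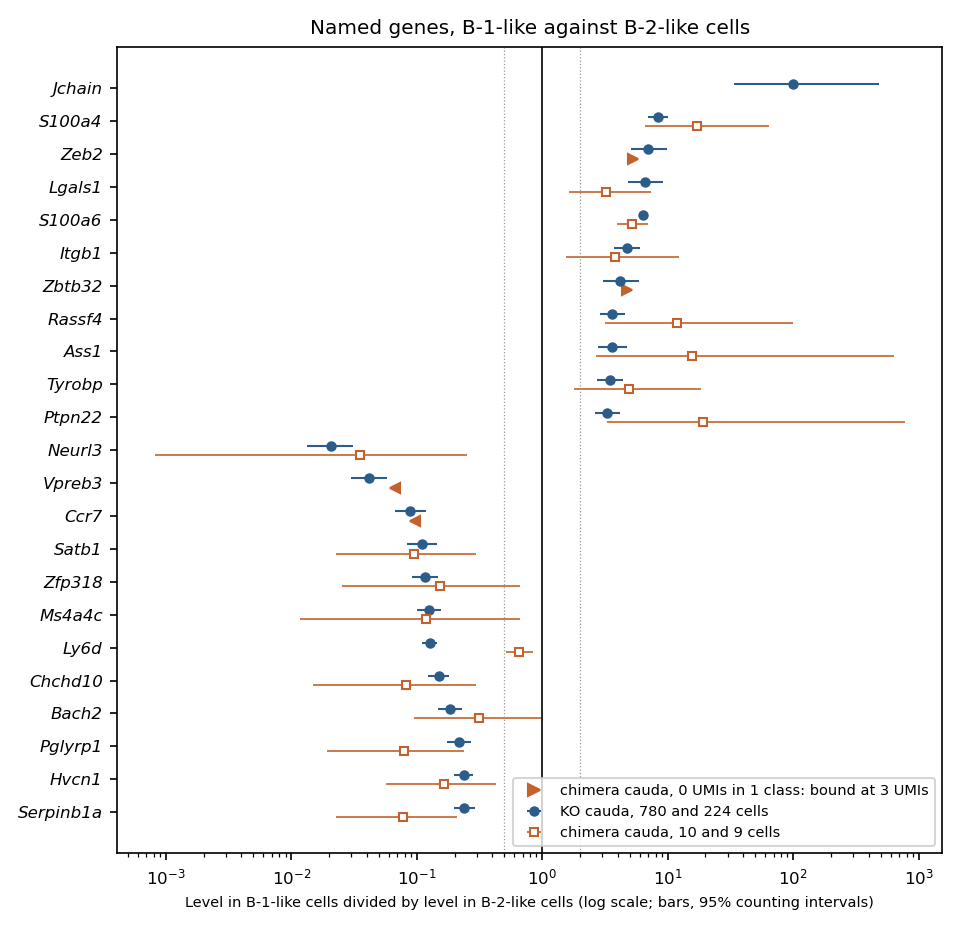
Level in B-1-like cells divided by the level in B-2-like cells (x axis, log scale) for genes with the largest ratio in each direction (y axis), with 95% counting intervals; blue circles are the KO cauda, open squares the chimera cauda, and triangles bounds where 1 chimera class had 0 UMIs, beyond which the true ratio may lie. The chimera values fall on the same side of 1 as the KO values for all genes shown that have one. All 10 chimera B-1-like cells and 8 of the 9 B-2-like cells carry KO cauda barcodes.

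Most of the named genes lay at levels between the classes in the B cells that the rule left out. The 509 B cells with UMIs of both kinds had S100a6 at 3100 CPM, Zbtb32 at 127 CPM and Ccr7 at 22.6 CPM, nearer to the B-1-like than to the B-2-like class. The 423 B cells with too few marker UMIs for either class held S100a6 at 2364 CPM, Zbtb32 at 83.9 CPM and Ccr7 at 37.1 CPM. Jchain lay between the classes in the 509 cells, at 45.8 CPM, but was an exception in the 423, where 245.0 CPM matched the B-1-like level. Counting the 509 cells as members would give 1289 cells, 66.6% of the gated B cells, and 35 higher and 40 lower genes. A grouping of all 1936 gated B cells made without the rule genes and without immunoglobulin genes gave 6 clusters. One of them held 92.0% of the B-2-like cells and 12.3% of the B-1-like cells. The next 3 in size held 38.6%, 27.2% and 16.3% of the B-1-like cells, with 4, 1 and 13 of the B-2-like cells.

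**Figure D3:**
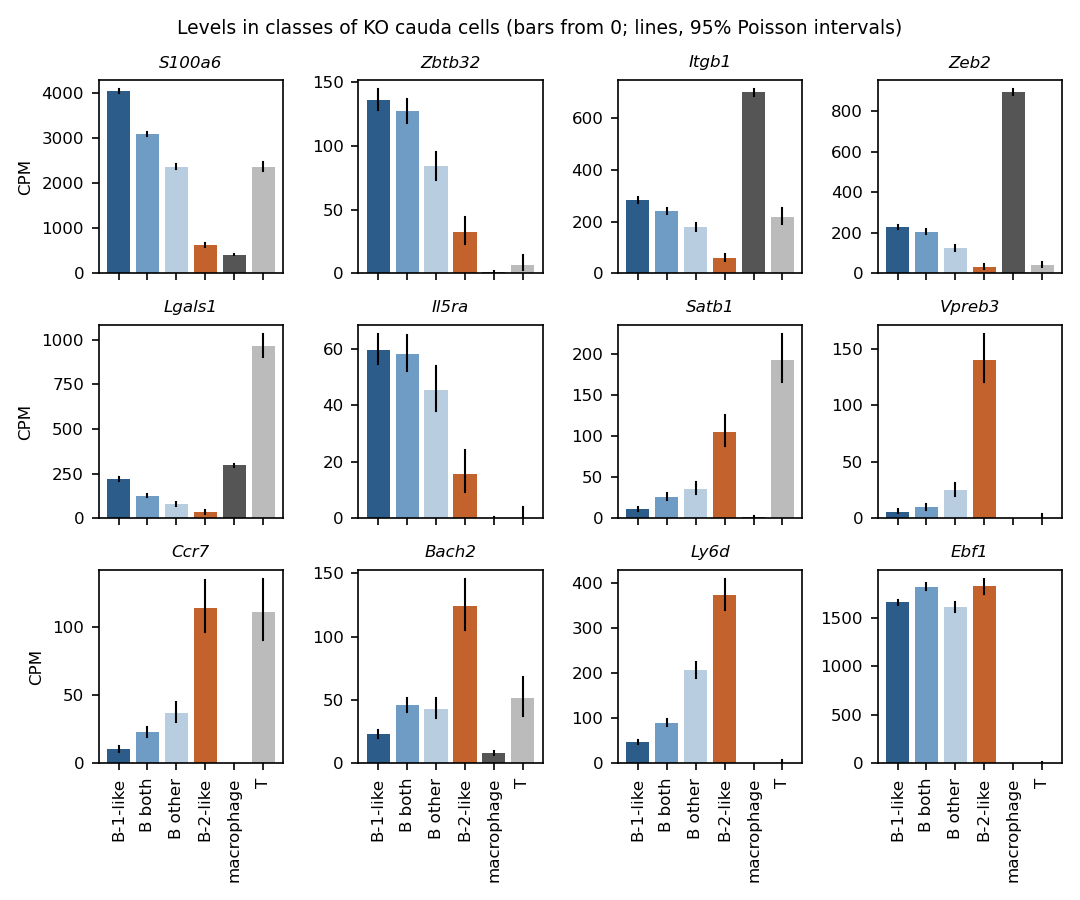
Level of 12 genes (y axis, CPM, from 0) in 6 classes of KO cauda cells (x axis), with 95% Poisson intervals; B both and B other are gated B cells with UMIs of both marker kinds or too few of either. S100a6 stands at 4045 in B-1-like and 635.0 in B-2-like cells, Vpreb3 at 5.89 and 140.6, and Ebf1 at 1662 and 1826.

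Gene lists were read against all 11427 measured genes, those with more than 3 UMIs in either class, of which 6.90% were at least 2-fold higher and 8.85% at least 2-fold lower. The median log2 ratio of all of them was -0.15. The B-1-associated list had 14 of 19 measured members at least 2-fold higher and 1 lower, with a median of 1.66. The list was drawn up with earlier results of these data known. Il5ra, the receptor for the interleukin that sustains B-1 cells, stood at 59.6 against 15.5 CPM, 3.84-fold higher (2.43 to 6.43). Arid3a was 4.12-fold (2.64 to 6.80), Plscr1 4.69-fold (2.94 to 7.98), Fcrl5 6.72-fold (2.58 to 24.9) and Ctla4 4.29-fold (1.80 to 13.4) higher. Prdm1, which encodes the plasma cell regulator Blimp-1, had 183 UMIs in 120 cells against 2 UMIs, a ratio of 13.7 (3.75 to 114). Anxa2, Ahnak, Vim and Cd9 stood between 2.06-fold and 2.54-fold higher, and Cd5 at 3.15 (0.820 to 26.9) has an interval that includes 1. Itgam, the CD11b chain of peritoneal B-1 cells, was at 1.98 (1.19 to 3.53), and macrophages held it at 1062 CPM. Bhlhe40, the paralog of the selecting gene Bhlhe41, was the lower member, with 15 UMIs against 16, or 1.84 against 13.1 CPM.

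The follicular and marginal zone list lay on the other side, with 11 of 19 measured members at least 2-fold lower, 0 higher and a median of -1.06. Beside the members already named, Icosl, a ligand for T cell help, was 27.4-fold lower, at 3.31 against 90.7 CPM. Cd55 was 2.81-fold, Fcmr, the IgM Fc receptor, 2.24-fold and Tnfrsf13c, the receptor for the survival factor BAFF, 2.08-fold lower. Cd1d1 was 2.02-fold lower on 33 and 10 UMIs. Klf2, at 1283 and 1272 CPM, and Cxcr5, at 92.1 and 100.5 CPM, stood near a ratio of 1.

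**Figure D4:**
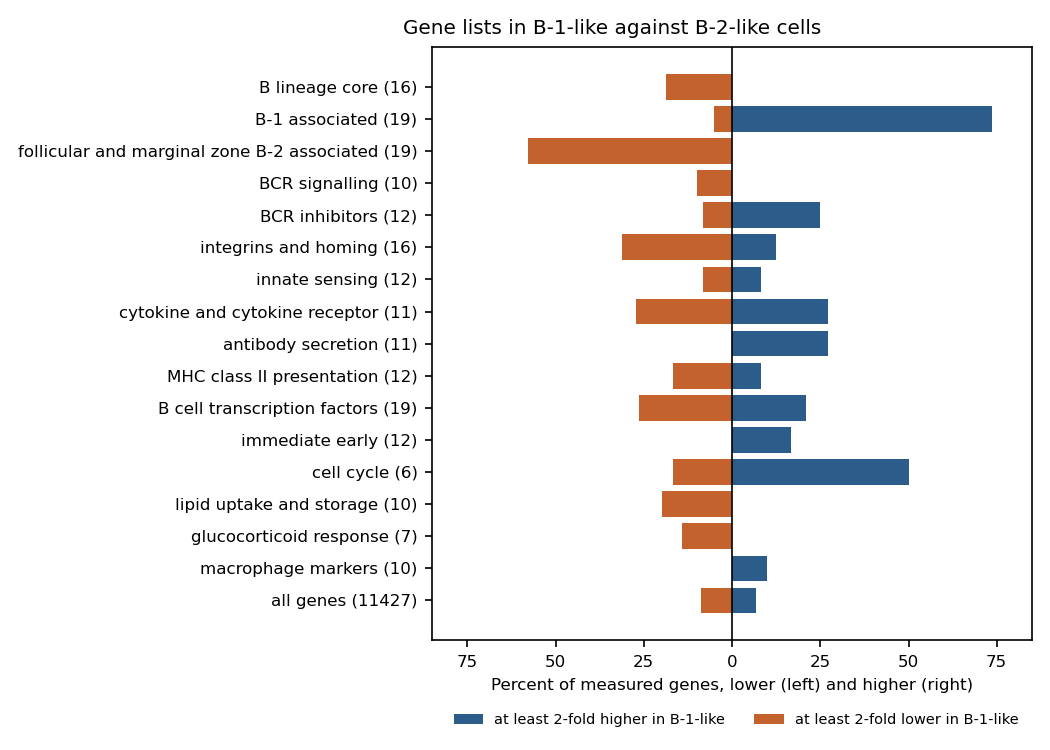
Percent of the measured genes of each list (number in brackets) that were at least 2-fold higher (blue, right) or lower (orange, left) in B-1-like than in B-2-like cells of the KO cauda. The B-1-associated list is largely on the higher side, the follicular and marginal zone list on the lower side, and all genes give 6.90% and 8.85%.

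Antigen presentation was near level between the classes. Cd74, the invariant chain, stood at 11247 against 11489 CPM and H2-Aa at 4830 against 5083 CPM. Of 12 class II genes, only Cd80, a co-stimulatory ligand, was 2-fold higher, at 20.5 against 8.17 CPM. The peptide-loading inhibitors H2-Oa and H2-Ob were 2.42-fold and 2.32-fold lower. In the receptor pathway, Syk was at 474 against 340 CPM, Cd79a, part of the gate, at 3494 against 3531, and only Pik3ap1 of 10 signalling genes passed 2-fold, 2.43-fold lower. Among 12 receptor inhibitors, Cd72 was 11.6-fold lower, with 38 UMIs against 66, and Ptpn22, Cd5 and Lair1 were past 2-fold on the higher side, Lair1 on 16 UMIs against 1. Siglecg, the inhibitory lectin that holds B-1 cell numbers in check, was at 453 against 324 CPM. Of 16 B lineage genes, 3 passed 2-fold, all lower: Cd72, Ly6d and Cd24a.

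Homing and cytokine genes were mixed. Ccr9, the receptor for gut homing, had 300 UMIs in 133 B-1-like cells and 2 UMIs in the B-2-like cells, a ratio of 22.5 (6.18 to 187). Ccr6 was 2.55-fold, Cxcr4 2.57-fold and Cd36 2.03-fold lower, and Itga4, at 224.7 against 234.5 CPM, was level. Csf2rb, the chain shared by the receptors for interleukins 3 and 5 and GM-CSF, was 4.14-fold higher (2.71 to 6.66), and its homolog Csf2rb2 at least 3.35-fold, with 67 UMIs against 0. The near-identical sequences of that pair make their split uncertain. Il10, the regulatory cytokine that B-1 cells can secrete, had 19 UMIs in 16 cells and none in the B-2-like cells, whose floor of 2.45 CPM lies above its 2.33 CPM, so no ratio is given. Lta and Tnf were 10.8-fold and 13.3-fold lower, on 13 and 7 UMIs. Ltb was at 654 against 1232 CPM.

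Transcription factors divided. Zeb2, Zbtb32, Arid3a and Id2 were at least 2-fold higher, Id2 at 16.2 against 5.72 CPM. Bach2, Bhlhe40, Bcl6, Irf8 and Id3 were at least 2-fold lower. Irf8 stood at 88.4 against 279 CPM, 3.15-fold lower, and Id3, an inhibitor of E proteins, at 58.0 against 174.9 CPM, 3.02-fold lower. Pax5, the B cell identity factor, was at 176 against 346 CPM, 1.96-fold lower. Pax5 was among the 10 of 19 measured factors that lay within 2-fold, the others being Ebf1, Spib, Irf4, Foxp1, Foxo1, Klf2, Klf3, Zbtb20 and Nr4a1.

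Of the remaining lists, antibody secretion had Jchain, Prdm1 and Tent5c past 2-fold on the higher side of 11 measured genes, Tent5c with 96 UMIs against 1. Mzb1 and Xbp1 had intervals that include 1. In the immediate early list, Jun at 2.53-fold (1.65 to 4.09) and Atf3, with 96 UMIs against 1, were higher, and the other 10, Jund and Btg2 the most abundant of them, lay within 2-fold. The innate sensing list had Ly96, a partner of Toll-like receptor 4, 3.59-fold higher and Tlr1 2.14-fold lower. Lipid genes were largely level, with Scd1 at 520.0 against 434 CPM and Apoe at 472 against 483 CPM. Cpt1a was 3.33-fold lower and Cd36 as above. Proliferation could not be read from the class sum: 67 of 98 Top2a UMIs and 32 of 61 Mki67 UMIs came from 1 cell each. The glucocorticoid list had only Per1 past 2-fold, 2.06-fold lower. Tsc22d3, the deleted gene, kept 3′ tags in these cells, with 125 UMIs in 108 cells, 15.3 against 9.81 CPM, a ratio of 1.56 (0.864 to 3.11). Such tags check nothing where the deletion lies elsewhere in the gene, and its position was not analysed here.

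Transcripts of other cell types were also found. Epididymal epithelium genes summed to 1530 CPM in B-1-like and 2605 CPM in B-2-like cells and were found in every class. Crisp1, the most abundant sperm-coating secretion among them, had 13.6 UMIs per B-1-like cell, 12.4 per B-2-like cell, 13.3 per T cell and 22.1 per macrophage. Between the B-1-like and B-2-like cells the counts per cell were close where the levels were 1305 and 2264 CPM. T and NK markers summed to 31.5 against 25.3 CPM. Cd3g held 134 of these UMIs, in 84 cells, at 16.4 CPM, while Trac had 1 UMI and Cd4, Cd8a, Klrb1c and Ncr1 had none. Mast cell, neutrophil and red cell markers summed to at most 28.3 CPM each, and the dendritic list to 38.5 CPM, of which Ccr9 made up 36.8.

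Heavy chain isotypes were dominated by IgM. Ighm stood at 6695 against 4044 CPM in B-1-like and B-2-like cells, 1.66-fold higher (1.61 to 1.70), and was found in 768 of 780 cells. Ighg3, the switched isotype typical of responses to carbohydrates, was 2.82-fold higher (2.25 to 3.56), at 188.6 against 67.0 CPM, and found in 494 cells. Its signal was spread over many cells, with 91 cells at 5 UMIs or more. Igha, with 115 UMIs in 19 cells, Ighg2b, with 174 in 17, Ighg2c, with 36 in 13, and Ighg1, with 29 in 5, were found in few cells. Ighe had none. Igkc was 1.23-fold (1.21 to 1.26), Iglc1 2.22-fold (2.11 to 2.34) and Iglc2 1.45-fold (1.39 to 1.51) higher, and Iglc3 level at 1.04 (0.975 to 1.10). Single cells weigh on these sums: the 2 cells with most Jchain held 9552 and 9015 Igkc UMIs, and 3792 and 1658 Ighm UMIs. The 473 cells without a Zcwpw1 UMI held 52481 Igkc UMIs in all, and the 204 with at least 2 held 48565. Another cell held 2286 of the 9358 Iglc1 UMIs of these 204. The ratios were not recomputed without these cells.

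The B-1-like cells were not uniform among themselves. Their Zcwpw1 counts separated a group of 204 cells with at least 2 UMIs from 473 with none, and 103 cells with 1 UMI lay between, so the split is a range and not a type. It was chosen after the values were seen. Ccr9 was 6.08-fold higher (4.58 to 8.16) in the 204 cells, at 86.4 CPM, with 86 of 204 cells positive against 36 of 473. Cd300lf, an inhibitory lipid receptor, was 5.31-fold (3.75 to 7.64), Lipc, hepatic lipase, 3.30-fold (2.69 to 4.08), Anxa5 3.11-fold (2.52 to 3.84) and Ubash3b 2.83-fold (2.37 to 3.38) higher. Cd3g was 3.90-fold higher (2.57 to 6.04), at 29.5 against 7.55 CPM. Bcl11a, a B cell transcription factor, was 3.31-fold lower (2.87 to 3.83). Genes that set the class apart from B-2-like cells differed unequally between the groups. S100a6 had a ratio of 1.19 (1.17 to 1.22), Zbtb32 of 1.42 (1.25 to 1.62) and S100a4 of 0.740 (0.700 to 0.782), while Lgals1 was 2.08-fold higher (1.88 to 2.30).

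The selecting genes themselves were split along the same line. Ahnak2 was 3.91-fold higher (3.27 to 4.69) in cells with Zcwpw1, while Lifr was at 58.2 against 155.5 CPM and Cplx2 at 82.5 against 188 CPM. A cell without Zcwpw1 had to reach the limit by the other 4 genes, which favours them in that group. Over the 780 cells, Pearson's r of log-scaled counts was 0.38 for Zcwpw1 with Ccr9, as a description of sparse counts from 1 library. Median depth was 11615 UMIs in the cells with Zcwpw1 and 9121 in those without.

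The phosphatidylcholine-type segments printed above were largely in the Zcwpw1 group. One or both were found in 55 of the 204 cells, 27.0% (21.0 to 33.6), and in 12 of the 473 cells, 2.54% (1.32 to 4.39). Igkv14-126 was in 48 against 4 cells and Ighv11-2 in 21 against 9. Lambda cells, by contrast, were 14.2% (9.73 to 19.8) of the Zcwpw1 group and 26.9% (23.0 to 31.2) of the others, at the 75% limit. Leaving out cells with a UMI of Cd3d, Cd3e, Cd3g, Cd68 or C1qa left 531 members, with 111 and 350 in the 2 groups. The segments were then in 22.5% and 1.71% of the groups. Over all members the same step lowered the share with a segment from 9.36% to 6.03%. Cells with Igkv14-126 fell from 57 to 23. Cd5 UMIs were in 19 of the 204 cells and 14 of the 473, at 9.04 against 3.78 CPM, a ratio of 2.39 (1.22 to 4.77). The 35 cells with a Cd5 UMI held S100a6 at 4689 against 4010 CPM in the other 745 and Lifr at 59.5 against 126.2 CPM.

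**Figure D5:**
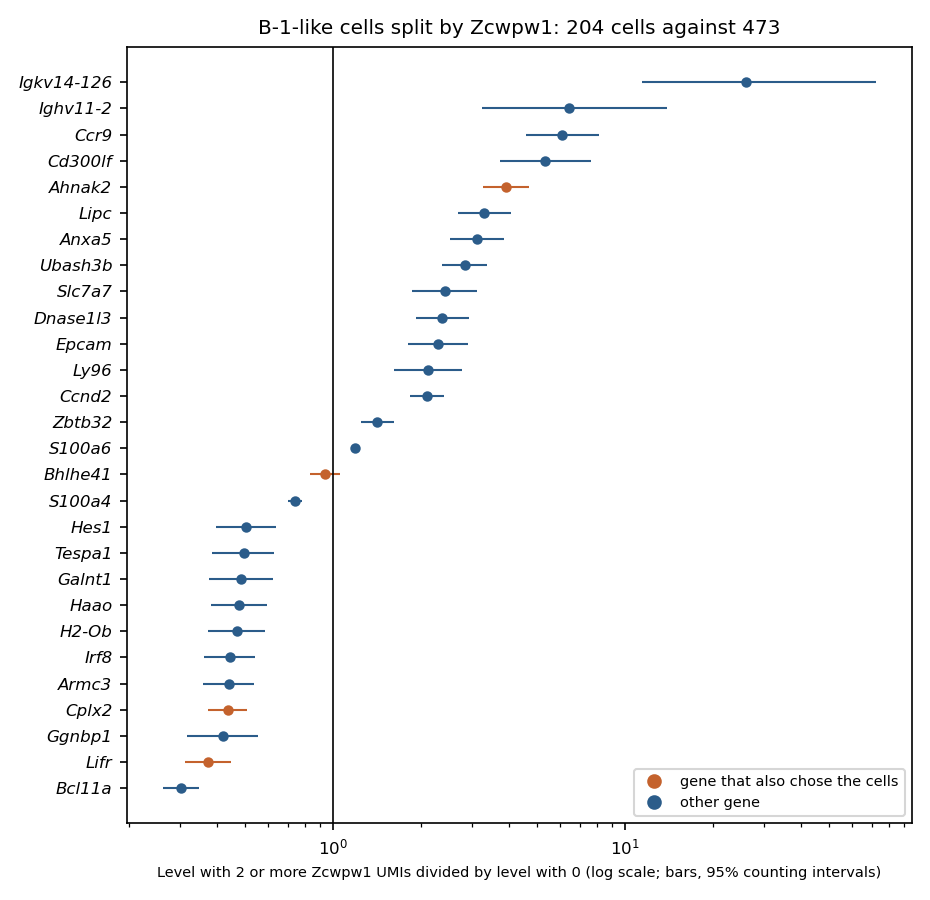
Level in B-1-like cells with at least 2 Zcwpw1 UMIs divided by the level in those with none (x axis, log scale) for the genes with the largest ratios and for others named in the text (y axis), with 95% counting intervals. Igkv14-126, Ighv11-2 and Ccr9 are furthest to the higher side, Bcl11a to the lower side, and orange points are genes that also chose the cells.

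In the chimera cauda, the 10 B-1-like and 9 B-2-like cells gave the same order of classes. They held 197551 and 70141 UMIs, and 8 of the 9 B-2-like cells also carry a KO cauda barcode. The chimera values are therefore not those of separate barcodes. Of the 12 named higher genes, 11 had a ratio and all 11 were higher in chimera B-1-like cells, and all 12 named lower genes were lower. Over 1199 genes with a ratio, 47.0% were higher and 53.0% lower. S100a6 stood at 3984 against 770 CPM in the chimera, 5.18-fold higher (3.93 to 6.95), and Zbtb32 at 202.5 CPM against none, at least 4.73-fold higher with the 0 set at the floor of 3 UMIs. Ly6d was the exception in size, at 926 against 1411 CPM, a ratio of 0.656 (0.511 to 0.847), where the KO cauda gave 0.126 (0.110 to 0.145). Jchain had no UMI in either chimera class.

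Between the libraries, B-1-like cells were alike in most class genes and differed in a few. Of 1283 genes with at least 100 CPM in either, 6 were at least 4-fold higher (0.468%) and 18 at least 4-fold lower (1.40%) in the KO cauda. Ly6a, which encodes the stem cell antigen Sca-1 and differs in lymphocytes between mouse strains, was the largest. Its level was 8.46 CPM in all 780 KO cells against 1104 CPM in the chimera cells. Of its 69 UMIs in the KO cells, 58 lay in the 13 cells whose barcodes are also chimera cells, where it stood at 1028 CPM. In the other 767 cells it stood at 1.36 CPM (0.678 to 2.43), and the chimera level was 812-fold that (445 to 1651). Ly6e, at 110 CPM in the 767 cells, 1719 CPM in the 13 shared cells and 1493 CPM in the chimera, followed the same pattern. Apobec3, a cytidine deaminase that restricts retroviruses, stood at 31.7, 408 and 532 CPM, and Ly6d at 43.5, 567 and 926 CPM.

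Tsc22d3 stood at 14.8 CPM (12.3 to 17.7) in the 767 KO cells and 131.6 CPM in the chimera, where 7 of the 10 cells held 26 UMIs, a ratio of 8.88 (5.58 to 13.7). Higher in the KO cauda were the epididymal secretions Crisp1, at 1296 CPM without the shared cells against 81.0 CPM, 16.0-fold (9.85 to 28.0), and Spink8, with 2 UMIs in the chimera, a ratio of 9.92 (2.74 to 82.0). Gpx3 had 1 UMI in the chimera, a ratio of 21.1 (3.78 to 835). None of these genes was particular to the class in the KO cauda. Crisp1 had 13.6 UMIs per B-1-like cell and 13.3 per T cell, and Spink8 1.06 and 0.935. Gpx3 stood at 107.4 CPM in B-1-like cells and 119.5 CPM in macrophages. The source of these transcripts was not tested. Jchain had none there against 244.0 CPM, and CT010467.1 was 3.77-fold higher (2.38 to 6.37). Only 115 of the 780 KO cells held Jchain, at 91.3 CPM without the top 2, so 10 chimera cells cannot settle whether it differs. S100a6 at 4048 and 3984 CPM, Ighm at 6694 and 6252 CPM and Cd79a at 3491 and 3953 CPM were close. The chimera matrix was written by another software version than the KO matrices, the animals differ in line, and the chimera cells are deeper, with a median of 20010 UMIs. Knockout, line, animal and library cannot be told apart with 1 library each.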

How the data were processed

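Raw UMI counts per gene and barcode were read from matrices that the authors deposited, with no normalization. The software named per the file headers is Cell Ranger 4 for the chimera and Cell Ranger 6.1.2 for the KO cauda and KO testis. Cell Ranger 6, Seurat 4.2.1 and the build GRCm38.p6 stand in the submitters' processing notes. How barcodes were chosen before deposit is not given in the sources used here. From these counts, class sums, levels, ratios and intervals were computed with Python 3.11.15, NumPy 2.4.6 and SciPy 1.17.1. Clusters were made with Scanpy 1.11.5 (Leiden, resolution 0.5, 15 neighbours, 30 components, 2000 variable genes), and segments aligned with Biopython 1.88.

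The members and the gene lists were chosen with earlier results of these data known. Named genes were the 12 with the largest ratio in each direction at 100 CPM or more (5 between libraries), leaving out rule genes, mitochondrially encoded and ribosomal protein genes and unnamed gene models. Of each list, every member past 2-fold and up to 4 with the most UMIs were eligible. The 5 selecting genes, Tsc22d3 and the constant genes were always named. Other genes, the 75% light chain limit, the Zcwpw1 split and the checks on shared barcodes and on cells with both marker kinds were chosen after values were seen. A count of 0 was set at a floor of 3 UMIs, and no ratio is given where the other class lies below that floor. Doublets were kept, and 99 of 3525 cells, 21 of them B-1-like, were left out in an alternative. Thinning to 2000 UMIs left out 8 B-1-like, 11 B-2-like and 4 macrophage cells. The size rule was tried on simulated class sums with planted changes larger than its fold limit. These sums held no spread between cells, so they do not check the rule on the real cells. Gene positions came from GENCODE M21. Results of some genes are not reported here. The alternatives varied cell limits, class limits, scaling, thinning and thresholds.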

Additional observations from a re-analysis of the deposited data

How the results depend on the processing

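Of 487 values recomputed under other settings, 429 stayed within the spread set for them, 58 moved and 0 changed direction. B-1-like cells were 22.1% of kept and 40.3% of gated B cells. These shares were 25.3% and 46.1% from 1 selecting UMI, and 19.3% and 35.1% from 3. Leaving out members with a UMI of Cd3d, Cd3e, Cd3g, Cd68 or C1qa left 531 cells. They were 15.1% and 27.4% of the 3525 kept and 1936 gated B cells. Those totals were not filtered, so these are not shares among cells without such UMIs. With no macrophage gene UMI allowed, the share of kept cells was 19.0%. Counting the cells with both marker kinds gave 1289 cells, 36.6% and 66.6%. The 39 higher and 48 lower genes against B-2-like cells became 7 and 12 at 4-fold, and 82 and 96 at 50 CPM. The higher genes were 25 with B-2-like cells from 1 UMI. At 75% of one light chain kind, 22.2% of cells were lambda, in place of 18.7%. Between KO and chimera cauda, the 6 higher and 18 lower genes became 22 and 68 at 2-fold, and the higher ones 14 with the KO sum thinned to the chimera total.

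These single ratios moved by over 1.5 times. Jchain ranged from 13.1-fold to 118.8-fold. With B-2-like cells from 1 UMI, S100a4 was 3.59-fold, S100a6 3.47-fold and Zeb2 4.08-fold higher. After thinning, Zbtb32 was 6.90-fold higher, and Satb1 14.5-fold and Pglyrp1 8.67-fold lower. With the cells of both marker kinds, Neurl3 was 21.5-fold, Ccr7 7.46-fold, Satb1 6.01-fold and Ms4a4c 5.31-fold lower. Against the chimera, Tsc22d3 was 13.0-fold lower with the KO sum thinned, and Ly6a 812-fold lower without shared barcodes. The causes of these shifts were not tested. With 1 library for each group, all intervals cover counting error within that library, and the spread between animals was not measured. The chimera values rest on 10 cells with KO cauda barcodes. No paired analysis was possible because each group has 1 library and no result comes from a test.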
